A study of Mus musculus with 6 samples.

Results

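The rod phototransduction genes are the set of transcripts that encode the light-sensing cascade of the rod outer segment: Gnat1, Gnb1 and Gngt1 for the 3 subunits of rod transducin, Pde6a, Pde6b and Pde6g for the rod phosphodiesterase, Cnga1 and Cngb1 for the cyclic nucleotide-gated channel, and Sag for rod arrestin. They were chosen as the rows of the gene count table that carry these 9 symbols, 9 of 23420 genes in all, and each of the 9 had 1 row and passed the filter on low counts in every comparison. Messenger RNA was sequenced from whole mouse retina in 3 groups of 2 libraries. Control mice received no treatment. The light group was exposed to bright white light of 10000 lux for 1 h after dark adaptation and pupil dilation, and retinas were taken 4 days later. The minocycline group had the same exposure plus intraperitoneal minocycline, a tetracycline antibiotic that dampens microglial reactivity, at 45 mg/kg daily over 4 days according to the sample labels. The study asked how light damage alters retinal gene expression and whether minocycline counteracts it.

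All animals belonged to an albino strain, which the sample labels give as CD1 and the methods of the study as adult BALB/cJ mice of both sexes. The methods also state a higher light intensity and additional minocycline injections. No genotype was manipulated. The labels name no vehicle injection for the control or light group, so minocycline and injection cannot be told apart, and neither can light, dark adaptation and pupil dilation. The number of retinas in a library was not given in the sources used here.

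Library totals ran from 15205930 to 22856922 counts, and the lowest count of any of the 9 genes in any library was 18294, for which counting error alone is 0.739%. The spread between libraries therefore set the precision. Rod markers were abundant in every library, with summed levels between 10370 and 24483 counts per 1000000 counts (CPM), and transcripts of the adjacent pigment epithelium were present, with 275 to 966 counts of Rpe65 and 0 or 1 of Best1. Control 1 stood apart by its Xist count of 77778 against 25 to 188 elsewhere and by 11 counts over 4 Y-linked genes against 6532 to 12858. No other library showed this pattern, and results without it are given below. The minocycline columns share a header that gives both the same replicate number, and they are called A and B here.

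In a rod, a photon isomerizes the chromophore of the visual pigment, the activated pigment switches transducin on, and the freed transducin alpha subunit relieves the phosphodiesterase of its inhibitory gamma subunits. Cyclic GMP falls, the channels of the plasma membrane close and the cell hyperpolarizes. Arrestin then binds the phosphorylated pigment and ends the signal. These proteins fill the rod outer segment, the rods are by far the most numerous cells of the mouse retina, and loss-of-function mutations in several of these genes cause retinitis pigmentosa or stationary night blindness.

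The upstream sequences of the genes were examined next. RefSeq promoter windows on GRCm38.p6, from 250 bases before to 50 bases after the annotated start, were at hand for 6 of the 9 genes (Cnga1, Cngb1, Gnb1, Gngt1, Pde6b and Sag). Missing were Gnat1, Pde6a and Pde6g. The windows were searched on both strands for TAATCC, a core of the sites bound by the photoreceptor homeobox factor CRX, and for TGCTGA, part of the sites bound by the rod leucine zipper factor NRL. These letters do not overlap in any of the 6 windows. The CRX core occurred in 4 of the 6 (Cnga1, Cngb1, Gngt1 and Sag) and in 7.06% of all 32851 promoter windows. The NRL letters occurred in 2 of the 6 (Pde6b and Sag) and in 19.5% of all windows. In Cngb1 the CRX core was present in 2 copies that began 58 and 25 bases before the start. Gnb1, which is expressed in many tissues besides the rod, held neither motif, and its 250 upstream bases had the highest GC content of the 6 (69.2%, against 38.4% to 55.6%).

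Shown here are the 250 bases before the start of Cngb1, whose transcript fell in the test across all genes below, of Sag, whose values moved least and which holds both motifs, of Pde6b with the NRL letters 8 bases before the start, and of Gnb1 for contrast. Each is written 5′ to 3′ on the gene's own strand, and capitals mark the motif letters found on either strand.
Cngb1 (chr8:95306586-95306835, minus strand): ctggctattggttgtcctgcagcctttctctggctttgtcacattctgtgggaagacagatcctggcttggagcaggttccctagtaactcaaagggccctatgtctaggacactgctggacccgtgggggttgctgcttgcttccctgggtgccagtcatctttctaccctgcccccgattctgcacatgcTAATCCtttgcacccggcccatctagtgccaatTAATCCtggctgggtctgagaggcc
Sag (chr1:87803430-87803679, plus strand): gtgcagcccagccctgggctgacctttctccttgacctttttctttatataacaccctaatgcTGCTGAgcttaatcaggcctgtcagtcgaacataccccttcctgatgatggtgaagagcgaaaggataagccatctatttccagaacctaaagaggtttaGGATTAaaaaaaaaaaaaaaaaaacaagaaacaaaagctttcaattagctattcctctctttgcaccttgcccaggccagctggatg
Pde6b (chr5:108388123-108388372, plus strand): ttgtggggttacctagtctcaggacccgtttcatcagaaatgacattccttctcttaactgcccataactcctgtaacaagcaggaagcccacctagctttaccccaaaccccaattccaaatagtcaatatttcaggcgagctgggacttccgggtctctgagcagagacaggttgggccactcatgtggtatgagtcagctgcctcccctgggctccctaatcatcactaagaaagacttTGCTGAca
Gnb1 (chr4:155491111-155491360, plus strand): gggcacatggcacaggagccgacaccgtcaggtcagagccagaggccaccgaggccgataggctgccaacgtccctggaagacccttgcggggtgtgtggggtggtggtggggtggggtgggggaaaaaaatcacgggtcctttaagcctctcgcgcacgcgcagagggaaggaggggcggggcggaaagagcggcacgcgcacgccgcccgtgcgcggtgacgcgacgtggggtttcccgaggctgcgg
In Sag the NRL letters began 187 bases and the reverse complement of the CRX core 87 bases before the start. A match of letters is a description of the window and does not show that a factor was bound in these retinas.

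Transcript levels of all 9 genes were lower in both light libraries than in both control libraries, and with minocycline they overlapped the controls. Levels are CPM, the counts of a gene per 1000000 counts of its library, scaled by trimmed mean of M values (TMM) over the 6 libraries. Differences are log2 fold changes from edgeR's quasi-likelihood test with standard error (SE) and p-values adjusted by Benjamini-Hochberg over all genes tested, and a gene is called at an adjusted p below 0.05. In total retinal RNA, fewer rods and less RNA per rod cannot be told apart.

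**Figure D1:**
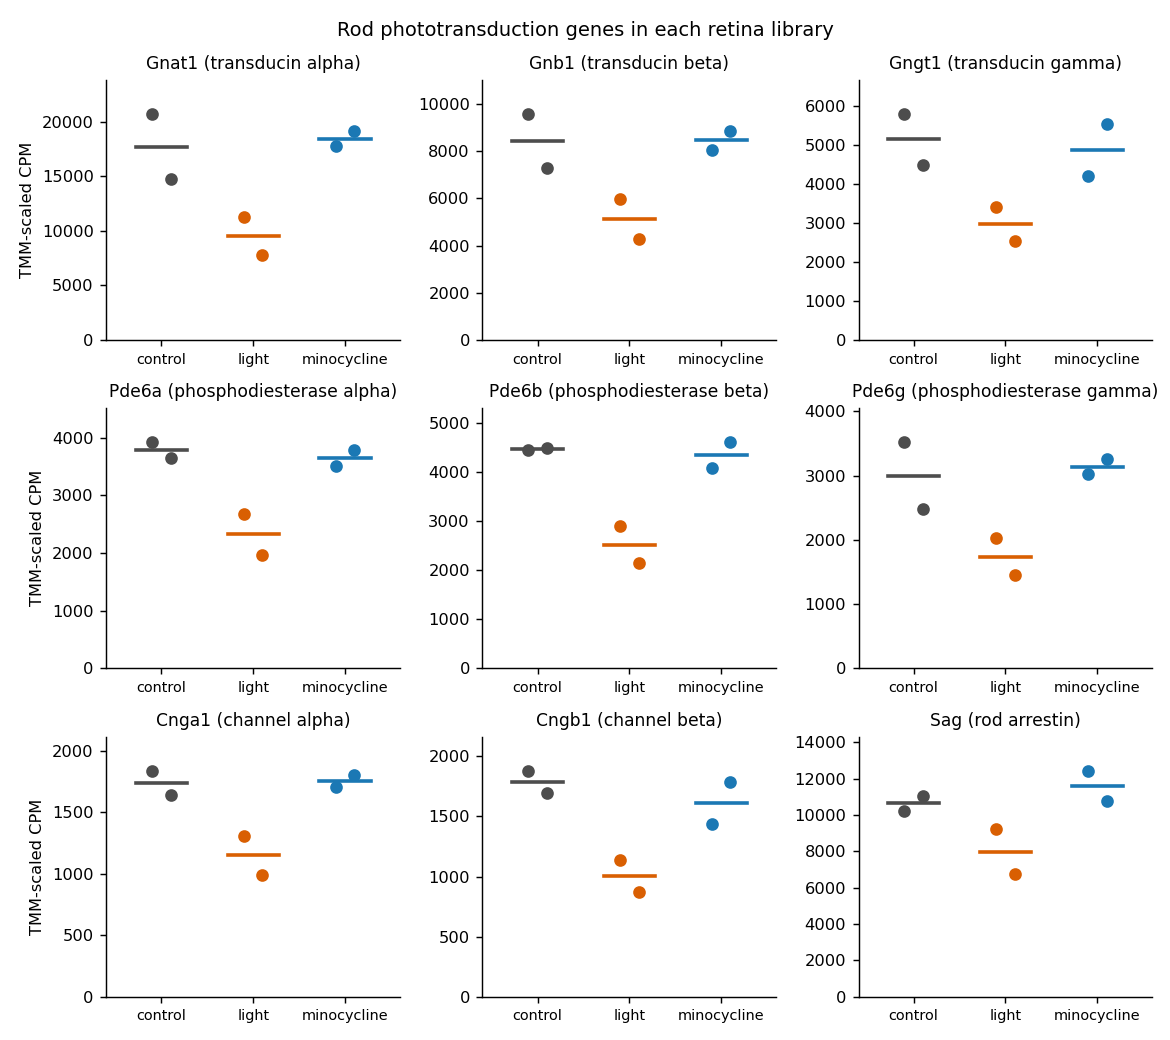
Level of each rod phototransduction gene in the 6 libraries, in TMM-scaled CPM on a linear axis from 0. Points are libraries and bars group means of 2. In each panel both light libraries lie below both control libraries, and the minocycline libraries lie above both light libraries and overlap or straddle the controls, as for Gnat1 with 17734 and 19104 CPM.

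Gnat1 encodes the alpha subunit of rod transducin, the GTPase that carries the signal from the pigment to the phosphodiesterase (chromosome 9: 107674474-107679712, GRCm38). Its level was 20718 and 14693 CPM in the controls, 11241 and 7756 CPM after light, and 17734 and 19104 CPM with minocycline. The light values did not overlap the other groups. The controls averaged 17706 ± 4261 CPM (SD, n = 2) and the light group 9499 ± 2465 CPM (SD, n = 2). The fitted light level was 53.8% of control (log2 fold change −0.89, SE 0.33), which did not pass the test (adjusted p = 0.100).

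The beta subunit gene Gnb1 (chromosome 4: 155491361-155559269) encodes the WD-repeat partner that rods share with many other cells. It measured 9590 and 7276 CPM in the controls, 5960 and 4291 CPM after light, and 8066 and 8861 CPM with minocycline. Its light against control difference was −0.71 (SE 0.29, adjusted p = 0.132). For Gngt1, the rod-specific gamma subunit (chromosome 6: 3993792-3997436), the controls gave 5814 and 4490 CPM, the light libraries 3407 and 2542 CPM, and the minocycline libraries 4201 and 5546 CPM. The difference was −0.79 (SE 0.27, adjusted p = 0.0808). For each transducin gene the higher light library lay below the lower control library, and the 3 fitted values differed from one another by less than their standard errors.

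Both catalytic subunits of the phosphodiesterase, which hydrolyses cyclic GMP, followed the same order. Pde6a stood at 3924 and 3641 CPM in the controls, at 2680 and 1965 CPM after light, and at 3504 and 3786 CPM with minocycline, with a light against control difference of −0.70 (SE 0.25, adjusted p = 0.0919). Pde6b (chromosome 5: 108388391-108432397), the gene mutated in the rd1 mouse, gave closely matched controls of 4460 and 4488 CPM, against 2903 and 2147 CPM after light and 4080 and 4616 CPM with minocycline. Its difference of −0.82 (SE 0.25) did not pass the test either (adjusted p = 0.0583). The inhibitory gamma subunit gene Pde6g (chromosome 11: 120447605-120453500) was less even among controls. It had 3523 and 2480 CPM there, 2031 and 1452 CPM after light, and 3025 and 3254 CPM with minocycline, and its difference was −0.78 (SE 0.27, adjusted p = 0.0814).

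The cyclic nucleotide-gated channel held the gene that passed the test. Cngb1, its beta subunit (chromosome 8: 95239045-95306585), fell after light to 56.3% of control. Its libraries read 1881 and 1697 CPM in the controls, 1141 and 869 CPM after light, and 1438 and 1789 CPM with minocycline. The decrease was −0.83 on the log2 scale (SE 0.22, 95% interval −1.31 to −0.34, adjusted p = 0.0372). The same locus also encodes soluble glutamic acid-rich proteins of the rod, and counts per gene do not separate them from the channel subunit. The pore-forming alpha subunit Cnga1 (chromosome 5: 72603696-72644275) measured 1841 and 1643 CPM in the controls, 1309 and 992 CPM after light, and 1710 and 1808 CPM with minocycline. Its difference was −0.59 (SE 0.22, adjusted p = 0.106).

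Sag, the rod arrestin that quenches the activated pigment (chromosome 1: 87803680-87845158), showed the smallest difference. Control libraries held 10241 and 11024 CPM, light libraries 9208 and 6758 CPM, and minocycline libraries 12438 and 10782 CPM. Light library 1 thus lay at 86.6% of the control mean, nearer to control than any other of the 9 genes in either light library. The fitted difference of −0.41 (SE 0.29) did not pass the test (adjusted p = 0.381), and its 95% interval of −1.04 to 0.22 included 0.

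Across the 9 genes, 1 was called lower after light, beside a background of 3.8% of the 14349 genes tested. For all 9, both light libraries lay below both controls, as they did for 30.3% of all genes. For Sag this depended on TMM scaling: as a share of all counts, light 1 held 0.991%, between the controls at 0.947% and 1.03%. The median difference of the 9 was −0.78, against 0.00 for all genes tested, and 8 of 9 had an unadjusted p below 0.05, as did 28.9% of all genes. None reached the fold criterion of the study, a log2 fold change of 2 in size. The count of calls depended on the fit: edgeR without the filter on low counts called 4 of the 9 (4.54% of all genes called lower), and DESeq2, run without that filter and with its own size factors, called 8 lower, all but Sag (5.25% of all genes). It also depended on single libraries. Without light 1, 6 of the 9 were called, beside 3.13% of all genes called lower. None, Cngb1 included, was called without control 1, control 2 or light 2, where the median was −0.60, −0.91 and −0.56, and these fits called few genes lower at all (0%, 0.249% and 0.372%). None was called either with total library size (0.927% of all genes called lower) or without robust estimation (3.25%).

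**Figure D2:**
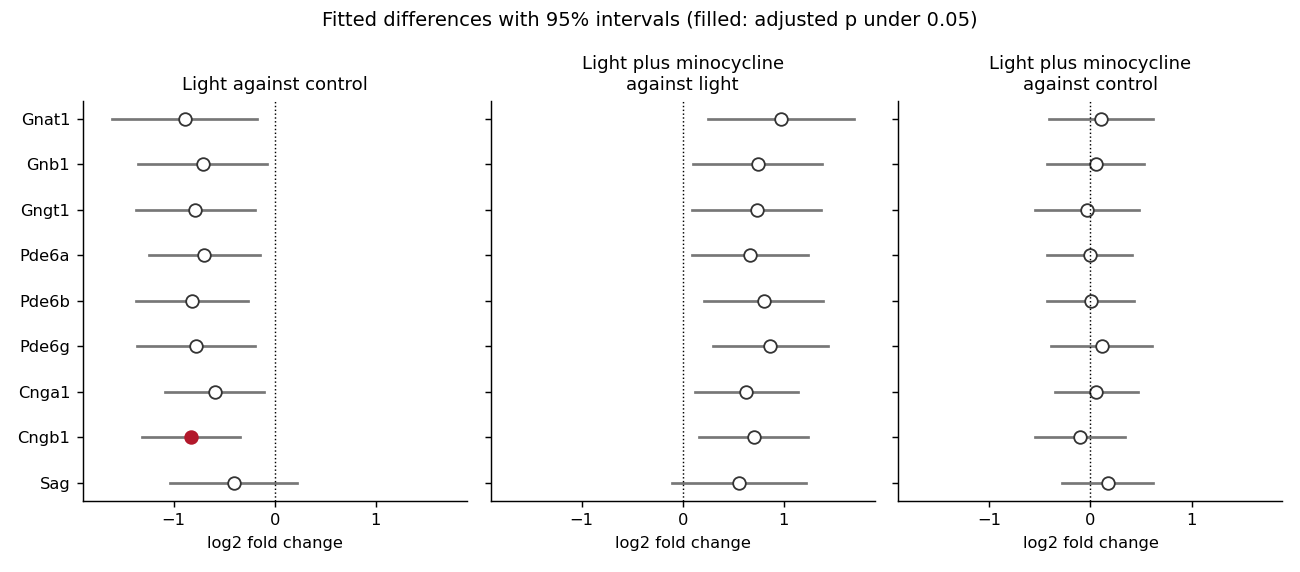
Fitted log2 fold change of each rod phototransduction gene with its 95% interval, for the 3 comparisons. The filled point, Cngb1 after light at −0.83, passed an adjusted p of 0.05. The 9 values are negative after light (−0.89 to −0.41), positive for minocycline against light (0.56 to 0.97) and near 0 for minocycline against control (−0.11 to 0.17).

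Expressed relative to the control mean, the median gene of the 9 stood at 67.7% in light 1 and 49.3% in light 2. All 9 genes were lower in light 2 than in light 1. The 9 microglia and macrophage markers moved the other way: their summed level was 35.2 and 42.7 CPM in the controls, 340 CPM in light 1, 1057 CPM in light 2, and 79.1 and 34.1 CPM with minocycline. After light edgeR called 3 of these 9 markers higher (Aif1, Cx3cr1 and P2ry12), beside 7.52% of all genes, and DESeq2 called all 9, beside 7.68%. No marker was at 0 in any library. The part of these cells in the lower rod values was not tested.

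The 9 genes together took a large share of each library. It was 5.74% and 4.79% of all counts in the controls, 4.29% and 3.21% after light, and 5.65% and 5.73% with minocycline. This share divides by the library total and uses no TMM scaling. Summed over the 9 genes, it was lower in both light libraries than in the other 4.

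Minocycline against light was the mirror comparison, with the light libraries shared between both. All 9 genes were higher in both minocycline libraries than in both light libraries, against 26.1% of all genes. The median difference was 0.73, against 0.01 over the 14750 genes tested. Gnat1 showed the largest value at 0.97 (SE 0.31, adjusted p = 0.140), followed by Pde6g at 0.87 (SE 0.24, adjusted p = 0.115) and Pde6b at 0.80 (SE 0.25, adjusted p = 0.137). Gnb1, Gngt1, Cngb1, Pde6a and Cnga1 ranged from 0.74 down to 0.63. Sag was again the smallest at 0.56 (SE 0.28, adjusted p = 0.313).

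With edgeR's quasi-likelihood test, 0 of the 9 were called, beside 0.0136% of all genes called higher, and 8 had an unadjusted p below 0.05, as did 21.1% of all genes. DESeq2 called all 9 higher, where 2.97% of all genes were. Without light 1 the edgeR fit called 1 of the 9, Gnat1, beside 0.434% of all genes called higher. Transcripts of the corneal epithelium also separated the groups. The summed level of 5 such markers was 188 and 265 CPM with minocycline and 2.11 to 14.8 CPM in the other libraries, and Krt12, the keratin that defines this epithelium, had 1798 and 2405 counts with minocycline and 6 to 128 elsewhere. Krt14 was at 0 in both controls and in light 2. In edgeR the desmosomal gene Dsp was called higher, 1 of 4 markers tested, and this call was lost with each other scaling, whereas DESeq2 called 4 of 5. The part of this tissue in the rod values was not tested.

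Minocycline against control left 0 of the 9 genes called in edgeR or DESeq2, beside 0.162% of all 14181 genes in edgeR and 1.11% of all genes in DESeq2, and 0 had an unadjusted p below 0.05 (7.01% of all genes). The libraries of both groups overlapped for each of the 9, whereas 39.9% of all genes did not overlap. The median difference was 0.05, against 0.02 for all genes. Cngb1 had the lowest value at −0.11 (95% interval −0.55 to 0.34) and Sag the highest at 0.17 (−0.28 to 0.62). Gnat1 stood at 0.10 with an interval of −0.41 to 0.62. With 2 libraries a group, these intervals leave room for differences up to their bounds in either direction. Sag stayed positive under every setting (0.06 to 0.23), and the sign of each other gene did not stay the same.

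Levels can be compared between genes once they are divided by annotated exon length (GENCODE M21, all exons of a gene joined). In the controls the order in CPM per kilobase was Gnat1 (7605), Sag (6150), Gngt1 (4355), Pde6g (3335), Gnb1 (2683), Pde6b (1598), Pde6a (824), Cnga1 (384) and Cngb1 (248). The ranges of neighbours over the controls overlapped for Gnat1 and Sag, for Gngt1 and Pde6g, and for Pde6g and Gnb1. Within each control library the order was nevertheless the same, except that Sag (6376) stood above Gnat1 (6311) in control 2. The channel genes thus lay at the bottom and the transducin alpha and arrestin genes at the top. With the length of the longest coding transcript instead, a choice made after seeing the data, Cnga1 read 636 CPM per kilobase, and no gene changed its place.

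After light the order was the same except that Sag (4617 CPM per kilobase) stood above Gnat1 (4080). Their ranges overlapped, but Sag was the higher within each light library, at 1.10 and 1.17 times Gnat1 per kilobase. With minocycline Gnat1 (7912) was again above Sag (6715), and here their libraries did not overlap. The transducin subunits were not at equal levels. In the controls the mean ratio per kilobase of Gngt1 to Gnat1 was 0.576 and that of Gnb1 to Gnat1 was 0.355. Pde6b exceeded Pde6a by a factor of 1.94 and Pde6g exceeded Pde6a by a factor of 3.99. For the channel, the ratio of Cngb1 to Cnga1 per kilobase was 0.645.

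Ratios of counts within a library are free of scaling between libraries and set the members of 1 complex side by side. With 2 libraries against 2, the smallest 2-sided p of an exact permutation test is 0.333, so the ratios are given as values only. The counts of Cngb1 over Cnga1 were 1.02 and 1.03 in the controls, 0.871 and 0.876 after light, and 0.841 and 0.990 with minocycline. Both light values and both minocycline values lay below the controls, and the light difference was −0.23 on the log2 scale. Minocycline A was thus as low as the light libraries in this ratio, although the levels of both genes were higher in it than after light.

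Sag over Gnat1 was 0.494 and 0.750 in the controls, 0.819 and 0.871 after light, and 0.701 and 0.564 with minocycline. The light libraries were the highest of the 6, 0.47 above the controls on the log2 scale, while the controls themselves spread widely. Gnb1 over Gnat1 also lay higher after light, at 0.530 and 0.553 against 0.463 and 0.495 in the controls and 0.455 and 0.464 with minocycline. Gngt1 over Gnat1 overlapped between light and control. Pde6b over Pde6a was 1.14 and 1.23 in the controls, 1.08 and 1.09 after light, and 1.16 and 1.22 with minocycline. Its light values lay below the other 4, with a difference of −0.12, and Pde6g over Pde6a overlapped between light and control.

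**Figure D3:**
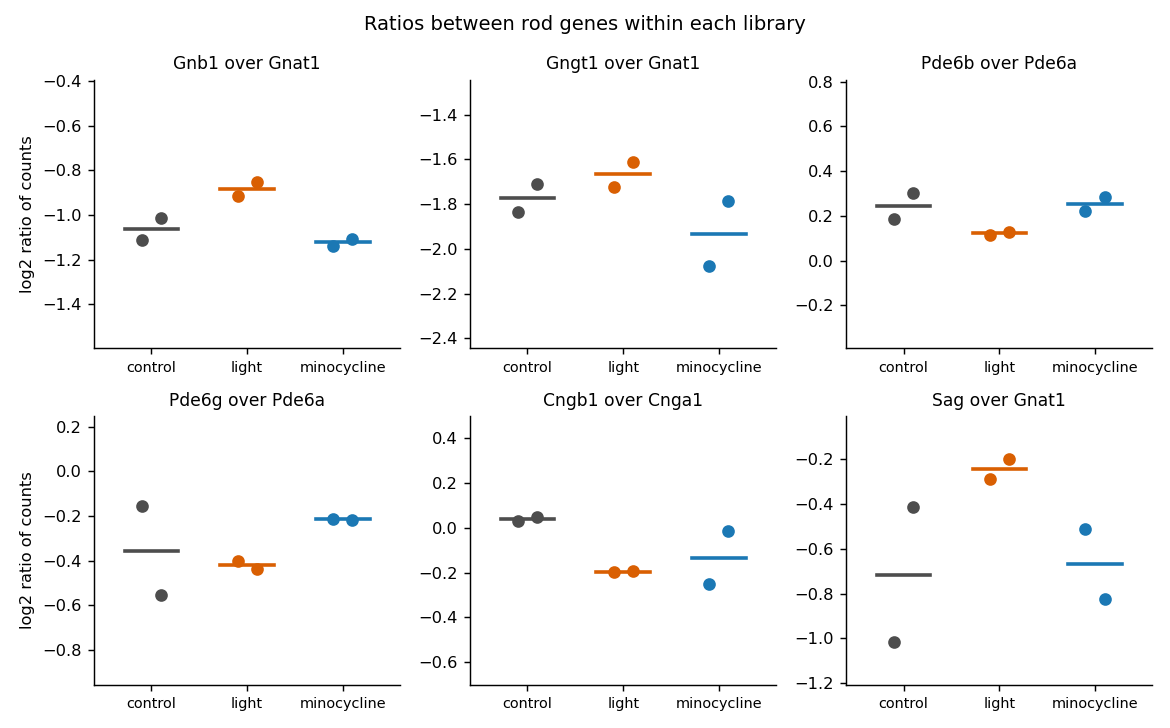
log2 ratio of counts between rod phototransduction genes within each library; points are libraries, bars group means of 2, and every panel spans the same 1.2 log2 units. Cngb1 over Cnga1 is lower after light by 0.23 and Sag over Gnat1 higher by 0.47, while Gngt1 over Gnat1 and Pde6g over Pde6a overlap between light and control.

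Further genes of the pathway lay in the same order. Of 14 further rod phototransduction genes, all were tested, and 3 fell after light. Rgs9bp, the membrane anchor of the GTPase-activating complex that switches transducin off, changed by −0.89 (SE 0.22, adjusted p = 0.0293). Gucy2f, a guanylate cyclase that restores cyclic GMP, changed by −0.79 (SE 0.21, adjusted p = 0.0352), and Guca1b, a calcium-binding activator of that enzyme, by −0.79 (SE 0.22, adjusted p = 0.0413). These 3 of 14 stand beside 3.8% of all genes called lower. All 14 had light libraries below both controls (30.3% of all genes), with a median of −0.68. DESeq2 called 12 of the 14 lower (5.25% of all genes), and edgeR called 0 with total library size (0.927%).

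Gnb5, which pairs with Rgs9 in the same GTPase-activating complex, had the least negative value at −0.33 (adjusted p = 0.347). Between this gene and Rgs9bp stood the kinase gene Grk1 (−0.75), the calcium sensor genes Rcvrn (−0.67) and Guca1a (−0.61), the cyclase Gucy2e (−0.64), the exchanger Slc24a1 (−0.74), the transducin-binding phosducin Pdc (−0.68), Rgs9 (−0.53), the chaperone Aipl1 (−0.50), and the lipid-binding transport factors Unc119 (−0.72) and Pde6d (−0.44), none of which passed the test in edgeR.

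With minocycline all 14 lay above both light libraries (26.1% of all genes), with a median of 0.61. In edgeR 0 were called (0.0136% of all genes called higher), 9 having an unadjusted p below 0.05, against 8 called higher in DESeq2 (2.97%). Against control, the median was −0.03 and 0 were called by either tool, with 0 at an unadjusted p below 0.05. In 5 of the 14 (Grk1, Rgs9, Rgs9bp, Gucy2f and Aipl1) both minocycline libraries lay below both controls, beside 24% of all genes. Rgs9bp, for example, read 2300 and 2348 CPM in the controls, 1382 and 1113 CPM after light, and 1648 and 2141 CPM with minocycline.

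Genes of rod identity and of the outer segment were examined in the same way. Of 10 such genes, 3 fell after light, Nrl, the transcription factor that specifies rods (−0.96, adjusted p = 0.0296), the orphan nuclear receptor Esrrb (−0.78, adjusted p = 0.0278) and the rod trafficking factor Reep6 (−0.81, adjusted p = 0.0424). These 3 of 10 stand beside 3.8% of all genes called lower. All 10 had light libraries below both controls (30.3% of all genes) and the median was −0.80. DESeq2 called all 10 lower (5.25% of all genes), and edgeR called 0 with total library size (0.927%). With minocycline 9 of the 10 lay above both light libraries (26.1% of all genes) with a median of 0.66. edgeR called 0 (0.0136% of all genes called higher), with 9 at an unadjusted p below 0.05, while DESeq2 called 8 higher (2.97%). Against control the median with minocycline was −0.12, and 0 were called by either tool, with 0 at an unadjusted p below 0.05. Both minocycline libraries lay below both controls for 2 of the 10, Crx and Samd7, beside 24% of all genes. Nrl had 3422 and 2855 CPM in the controls, 1792 and 1424 CPM after light, and 2961 and 3424 CPM with minocycline.

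**Figure D4:**
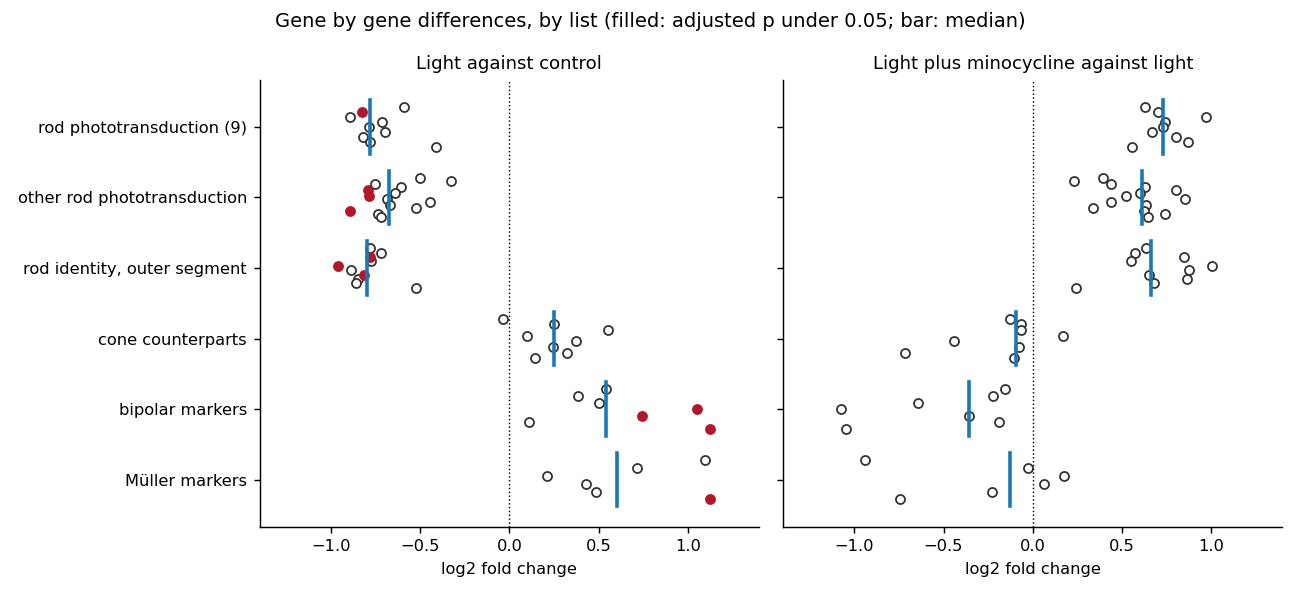
log2 fold change of every gene in 6 lists, after light against control (left) and for minocycline against light (right). Points are genes, filled where the adjusted p was below 0.05, and bars are list medians. The 3 rod lists have medians of −0.78, −0.68 and −0.80 after light, and the cone counterparts, bipolar and Müller markers have medians of 0.25, 0.54 and 0.60.

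The cone counterparts of the 9 genes gave other values in the same libraries. Cones use the parallel products Gnat2, Gnb3, Gngt2, Pde6c, Pde6h, Cnga3, Cngb3 and Arr3. Of these 8, edgeR called 0 after light, beside 7.52% of all genes called higher and 3.8% lower. DESeq2 also called 0, beside 7.68% higher and 5.25% lower. An unadjusted p below 0.05 was found for 1 of the 8, against 28.9% of all genes, and their median was 0.25. With total library size edgeR called 2 higher, beside 13.5% of all genes, and the median was 0.48, or 0.25 relative to the median of all genes. Cngb3 had the largest value, with 17.0 and 18.9 CPM in the controls, 27.5 and 24.9 CPM after light, and 27.0 and 22.5 CPM with minocycline (light against control 0.55, SE 0.18, adjusted p = 0.0752). Gnat2 measured 167 and 144 CPM, 190 and 143 CPM, and 201 and 170 CPM in the same order, and its light and control libraries overlapped. Arr3 was the 1 gene of the 8 with a negative value (−0.04), and its sign turned positive with total library size or upper-quartile scaling.

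Each rod gene was therefore set against its counterpart within every library. Gnat1 over Gnat2 was 124 and 102 in counts in the controls, 59.3 and 54.2 after light, and 88.4 and 113 with minocycline. Cngb1 over Cngb3 was 111 and 89.9, 41.5 and 34.8, and 53.3 and 79.6, the widest gap among the 9 pairs (−1.39 on the log2 scale). Sag over Arr3 was 36.3 and 29.0, 28.4 and 21.2, and 39.2 and 40.5, the narrowest (−0.40). In all 9 pairs both light libraries lay below both controls and below both minocycline libraries. How often ratios of other gene pairs separate in this way was not counted, and the Pde6a and Pde6b pairs share Pde6c. The other 7 light differences ran from −1.16 for Pde6b over Pde6c to −0.86 for Cnga1 over Cnga3. Against control the minocycline ratios were lower for Cnga1 over Cnga3 and Cngb1 over Cngb3, higher for Pde6a and Pde6b over Pde6c and for Sag over Arr3, and overlapping for the other 4. Pde6c itself had 42.4 and 50.1 CPM in the controls and 31.9 and 37.6 CPM with minocycline. Pde6a and Pde6b stood at −0.01 and 0.00 for minocycline against control on the log2 scale.

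**Figure D5:**
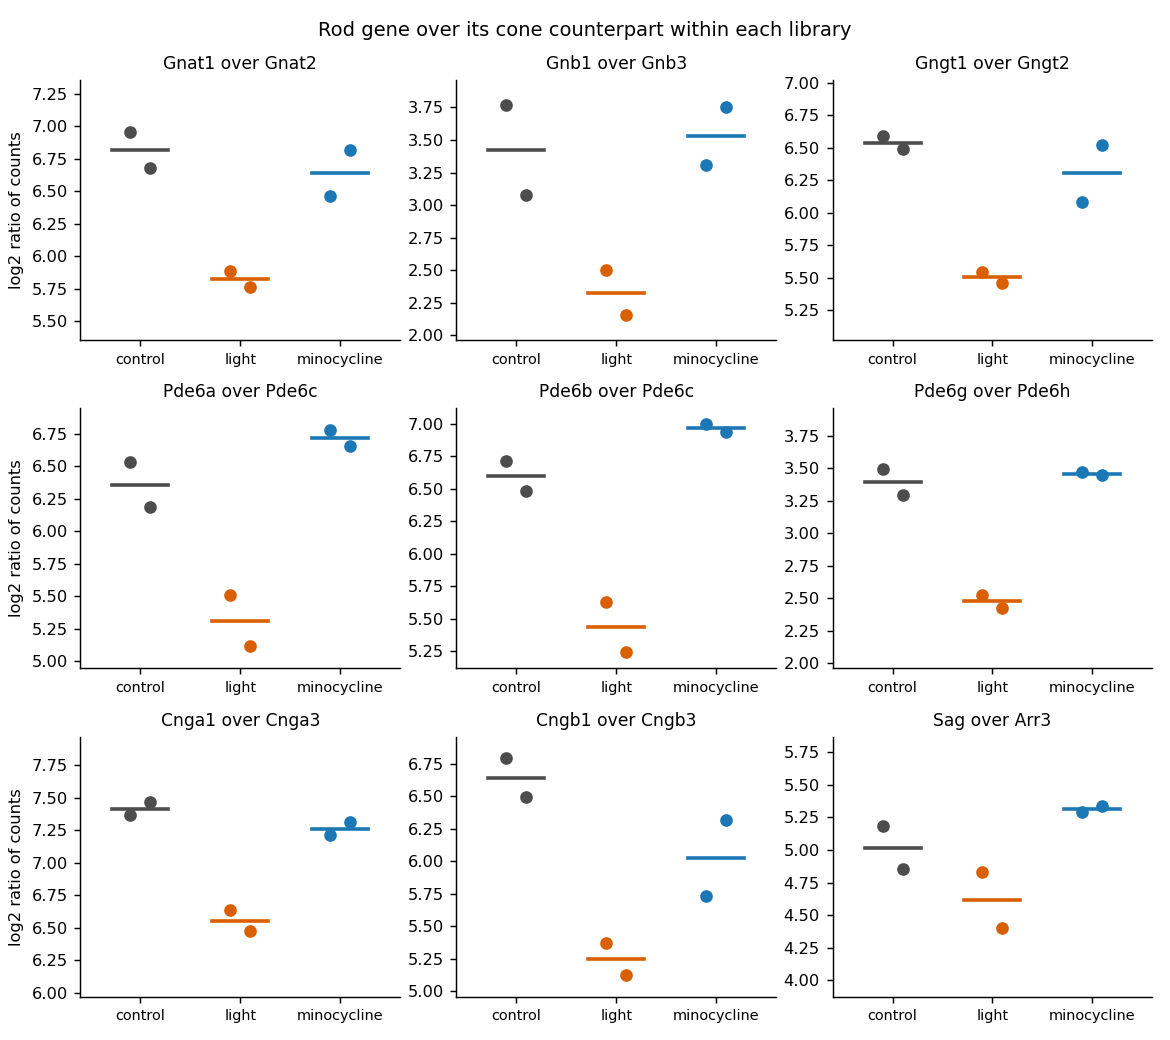
log2 ratio of counts of each rod phototransduction gene over its cone counterpart within each library; points are libraries, bars group means of 2, and every panel spans 2 log2 units. Both light libraries are lowest in all 9 panels, with Cngb1 over Cngb3 lower by 1.39 and Sag over Arr3 by 0.40 than control.

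Markers of bipolar cells, the targets of rod output, had light libraries above both controls for 6 of 7 genes, as did 30.6% of all genes. In edgeR 3 of the 7 rose (Trpm1, Pcp2 and Isl1), beside 7.52% of all genes called higher, and the list's summed level was 1066 and 1060 CPM in the controls, 1421 and 1850 CPM after light, and 1178 and 994 CPM with minocycline. Of 6 Müller glia markers edgeR called 1 higher, the glutamate transporter gene Slc1a3, DESeq2 called 3 (7.68% of all genes), and edgeR with total library size called 4. With that scaling edgeR called 5 of the bipolar markers and 13.5% of all genes higher. The summed level of 6 cone markers was 1451 and 1391 CPM, 1801 and 1371 CPM, and 1542 and 1401 CPM in the same order, and overlapped between all groups. The summed level of 6 ganglion cell markers was 305 and 166 CPM, 283 and 259 CPM, and 513 and 246 CPM, highest in minocycline A. In every comparison edgeR and DESeq2 called 0 of the 6. An unadjusted p below 0.05 was found for 1 of the 6 in each comparison with minocycline, beside 21.1% of all genes against light and 7.01% against control. These levels share a scale with the rod genes, and the part of cell composition in the rod values was not tested.

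Over the 6 libraries the 9 genes varied closely together. Each gene's correlation with their mean profile, which includes the gene itself, ran from 0.890 for Sag to 0.999 for Cnga1. Pairs of genes ranged from 0.758 for Gngt1 and Sag to 0.999 for Gnat1 and Pde6g. Among 11155 other genes with a mean count of at least 100, the highest correlations with this profile belonged to Vtn (vitronectin), Arhgap5, Prph2 (a structural protein of the disc rim), Impg1 (a proteoglycan of the matrix around photoreceptors), Lgalsl, Mgat1, Tsga14 and Slc24a1, with Pearson's r from 0.996 to 0.999. Vtn read 936 and 840 CPM in the controls, 649 and 491 CPM after light, and 880 and 918 CPM with minocycline. These correlations are descriptions over 6 libraries, and all genes of a library share its depth and scaling.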

How the data were processed

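Retinal mRNA of 6 libraries was sequenced by the authors with a stranded TruSeq protocol as single reads. The reads were aligned with STAR to mm10 and counted per gene, and DESeq2 was used by the authors for pairwise comparisons. The versions of STAR and DESeq2 and the annotation release were not given in the sources used here. The deposited values are whole-number counts per gene with unequal library totals and were used as raw counts, although the data statement of the study calls them normalized. No exon of another gene in GENCODE M21 overlapped the exons of the 9 genes.

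Pairs of groups were fitted with edgeR 4.0.16 (filterByExpr, TMM, robust quasi-likelihood test) in R 4.3.3, as the values are counts, and DESeq2 1.42.0 served as an alternative. The steps were tested on simulated data. Log2 CPM used a prior count of 2. The 9 genes and all lists were chosen with earlier results of these data known. Some genes first placed on these lists were left out and are not reported here. Named were the 9 genes, the 14 further pathway genes, the cone counterparts, at most 4 called rod identity genes and the 8 genes of most alike profile. Crx, Samd7, marker genes of other cell types and sex-linked genes were named after their values were seen. Other scalings, filters, tools and fits without each library were run as alternatives. Replicates within groups differed by more than sampling noise. The study calls the 2 samples of a group biological replicates without saying more, so p-values measure the spread between these libraries.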

Additional observations from a re-analysis of the deposited data

How the results depend on the processing

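After light, all 9 fitted values stayed negative under each of the 13 alternatives, and minocycline against light stayed positive under each of its 12. Against control, 89 of 108 values kept their sign. After light, 1 of the 9 genes was called, against 0 with total library size, without robust estimation or at an adjusted p below 0.01, 4 with no filter and 8 with DESeq2. Leaving out 1 library gave 0 to 6, with medians of −1.01 to −0.56. Total library size moved the median of all genes to 0.24 and that of the 9 from −0.78 to −0.55, which is −0.79 relative to it, and the split of all calls from 1079 higher and 545 lower to 1930 and 133. For minocycline against light, total library size moved the median of all genes to −0.17, DESeq2 called 9 genes against 0, and leaving out 1 library gave 0 to 1. For minocycline against control, leaving out 1 library gave medians of −0.12 to 0.13. Fits of 2 libraries against 1 assume that the lone library varies like the others. Over all genes, calls after light ran from 4 (without control 1) to 2525 (replicate block) around 1624. Minocycline against light ran from 0 to 1201 around 8, and minocycline against control from 0 to 480 around 23. With the replicate block, which pairs control 1 with light 1 by number alone, 7 of the 9 genes were called (5.97% of all genes called lower), but the deviations of these libraries correlated at only −0.0107 over 14713 genes. No paired analysis was possible for minocycline because its columns carry the same replicate number. With at least 18294 counts for each of the 9 genes, counting error was at most 0.739%.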
